A study of Mus musculus with 2 samples.

Results

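The developmental homeobox genes outside the Hox clusters were compared between mouse embryonic stem (ES) cells with a constitutive knockout of Eed (Eed KO) and control ES cells, with 1 array in each group. The 56 genes were taken as a named list of the Pax, Dlx, Msx, LIM, Nkx, Irx, Pitx, Meis and related families. This list was chosen with earlier results of these data known. Their probe sets were those with that single gene symbol in the platform annotation. Of the 56, 55 had such a probe set, out of 18193 genes named in this way on the array, and they had 92 probe sets. Signals of Pax2 are not analysed here, and it enters only the promoter counts below, outside the groups made by signal. Total RNA was labelled with biotin and hybridized to Affymetrix MOE430 2.0 arrays, whose probe sets each pool several oligonucleotides of a transcript into 1 signal. The labels do not say how Eed was disrupted, from which line the controls came, or whether the cells grew on feeder cells. With 1 array per group no replicate error exists, so no test was made and every difference below is one between these 2 arrays.

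Homeobox genes encode transcription factors that bind DNA through a homeodomain, and they pattern the body axis, the nervous system, the limbs and the organs. Pax proteins bind through a paired domain, with or without a full homeodomain, and all Pax genes listed here are counted with the homeobox genes. In ES cells many of these genes are held silent with trimethylated lysine 27 of histone H3, the mark that Polycomb repressive complex 2 (PRC2) deposits, and Eed is a core PRC2 subunit that binds this mark. Many such promoters lie in CpG islands, stretches of DNA rich in the dinucleotide CG.

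The promoters of 5 genes that were higher in the Eed KO array are shown because they span the range from few to many CpG dinucleotides in this group. Each is the 250 bases before the transcription start on GRCm38.p6, from RefSeq, written 5′ to 3′ on the strand of the gene with each CpG in capitals.
Meis2 (chr2:116064620-116064869, - strand): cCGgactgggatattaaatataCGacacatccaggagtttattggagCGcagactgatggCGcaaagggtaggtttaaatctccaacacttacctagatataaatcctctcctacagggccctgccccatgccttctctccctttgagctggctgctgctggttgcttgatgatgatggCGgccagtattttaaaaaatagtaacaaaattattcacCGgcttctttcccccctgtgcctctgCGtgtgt
Prrx2 (chr2:30845117-30845366, + strand): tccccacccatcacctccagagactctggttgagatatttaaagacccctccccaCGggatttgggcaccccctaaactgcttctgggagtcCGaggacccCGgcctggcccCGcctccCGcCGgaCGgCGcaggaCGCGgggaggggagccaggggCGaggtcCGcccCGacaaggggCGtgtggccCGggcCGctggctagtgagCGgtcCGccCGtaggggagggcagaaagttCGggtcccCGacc
Msx2 (chr13:53472781-53473030, - strand): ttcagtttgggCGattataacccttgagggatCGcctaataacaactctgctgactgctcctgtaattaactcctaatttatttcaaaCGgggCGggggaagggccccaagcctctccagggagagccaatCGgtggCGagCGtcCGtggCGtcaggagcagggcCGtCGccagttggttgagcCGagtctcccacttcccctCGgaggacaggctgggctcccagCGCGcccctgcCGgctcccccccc
Irx3 (chr8:91801655-91801904, - strand): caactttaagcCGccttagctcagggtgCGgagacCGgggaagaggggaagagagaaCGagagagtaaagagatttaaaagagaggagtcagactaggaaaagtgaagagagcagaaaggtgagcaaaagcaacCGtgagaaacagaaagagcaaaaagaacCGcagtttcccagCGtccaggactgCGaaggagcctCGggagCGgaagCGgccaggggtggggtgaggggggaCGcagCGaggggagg
Barx1 (chr13:48662786-48663035, + strand): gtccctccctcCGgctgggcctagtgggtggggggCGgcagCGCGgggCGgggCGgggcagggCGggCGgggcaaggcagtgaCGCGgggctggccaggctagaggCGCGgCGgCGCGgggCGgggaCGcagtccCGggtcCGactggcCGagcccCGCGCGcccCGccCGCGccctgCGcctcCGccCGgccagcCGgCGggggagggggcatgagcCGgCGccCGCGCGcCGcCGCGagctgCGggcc
The Meis2 promoter held 7 CpGs in these 250 bases at 47.6% G and C, and that of Barx1 held 40 at 85.6%. Prrx2, Msx2 and Irx3 lay between them, with 21, 16 and 13 CpGs.

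Promoter sequence was not used to choose the genes. Over the whole 300 bases of the RefSeq table (250 before and 50 after the start), 42 of the 56 genes had an entry. Their CpG observed over expected ratio, the CpG count relative to that given by the C and G content, had a median of 0.752, against 0.657 for 14452 genes named on the array. The ratio was at least 0.6 in 31 of the 42 genes (73.8%), and in 55.7% of the 14452. It was 67.3% for 55 other homeobox genes outside the Hox clusters, and 11 of 22 Hox cluster genes passed. Among the 42 genes the ratio did not order the differences between arrays. Its median was 0.714 in the 10 that were higher by 2-fold or more in the Eed KO array. It was 0.824 in 17 with signal on at least 1 array that did not reach 2-fold. In 14 with low signal on both arrays it was 0.738. Letter matches on either strand in any promoter of a gene were also counted, with overlaps between motifs not removed. CCAAT was found in 24 of the 42 genes (57.1%, against 42.0% of the 14452), GGGCGG in 25 (59.5%, against 57.3%), TGACAG, a core of MEIS sites, in 10 (23.8%, against 20.5%) and TATAAA in 3 (7.14%, against 11.5%). TAATTA, a homeodomain core, occurred in Emx2 and Msx2 (4.76%, against 4.08%), and the octamer ATGCAAAT in Cdx4 and Evx1 (4.76%, against 1.68%).

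On the arrays as a whole, signals were on a linear scale with a trimmed mean of 500.00 on each. All 45101 probe sets had a median of 108.1 in Eed KO and 87.4 in control, and the ratio of 3′ to 5′ signal of Gapdh, a measure of RNA integrity, was 0.789 and 0.791. All 8 ES cell markers examined had signals of at least 4666 in Eed KO and at least 3408 in control, including Pou5f1 (11352 and 12948). The Eed probe set read 11456 in Eed KO and 10101 in control. As the disrupted part of the gene is not given in the labels, this signal checks nothing. Fibroblast markers also differed: of 19 with a probe set, 17 were above the background floor defined below on both arrays, 13 were past 2-fold upward and 0 downward, and their summed signal was 26641 in Eed KO and 10082 in control. Single fibroblast markers ranged over 34.5 to 10183 in Eed KO and 2.8 to 4361 in control. Of the defining ones, Lum and Fap were under the floor on both arrays, while Dcn read 554.1 and 116.3 and Col1a2 1782 and 663.4. Of 10 primitive endoderm markers 6 were past 2-fold upward and 0 downward. Their summed signal was 6990 in Eed KO and 3460 in control. Of 8 measured trophoblast markers 5 were past 2-fold upward and 0 downward. Of these 5, Krt7 (746.9 in Eed KO and 373.3 in control) was only just past it. Tfap2c (1065 in Eed KO and 1475 in control) and Ascl2 (186.8 and 343.1) went the other way, and Cdx2 was under the floor. Under the 4 other scalings given below, 3 or 4 trophoblast markers were higher and 1 lower. Over all 9 with a probe set their summed signal was 9126 in Eed KO and 5304 in control. Krt8 alone gave 5690 and 2672 of this. Neural progenitor markers, 7 of them measured, had 0 past 2-fold upward and 2 downward, with a summed signal of 1410 in Eed KO and 2331 in control over all 11 with a probe set. The lower ones were Neurod1 (104.5 in Eed KO and 813.5 in control) and Olig2 (3.1, under the floor, and 499.9). Mesoderm markers, 6 of them measured, had 0 upward and 1 downward, Foxf1 (76.2 in Eed KO and 161.3 in control), with a summed signal of 499.7 and 723.2 over all 8. Pax6 and Meox1 of the homeobox list are among these neural and mesoderm markers. The part of these cells in the homeobox values was not tested, and in RNA from a whole culture a larger share of such cells cannot be told apart from more RNA per cell.

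The homeobox genes had low signals on both arrays. The 40th percentile of the signals of both arrays, 61.3, served as a floor. Of the 55 genes, 33 were above it in Eed KO (73.2% of all 18193 genes were) and 23 in control (41.8%, against 67.6% of all genes). The highest signal of any of the 92 probe sets was 416.9 in Eed KO and 286.9 in control. Without any floor, the signal was higher in Eed KO for 44 of the 55 genes and lower for 11. That is 80.0%, where it was 59.0% for all genes and 65.5% for the 10748 genes with both signals under 450, a limit set after the members' signals were seen. The 92 probe sets gave 73 higher and 19 lower (79.3% higher, against 58.6% of all named probe sets and 63.3% of those with both signals under 450).

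**Figure D1:**
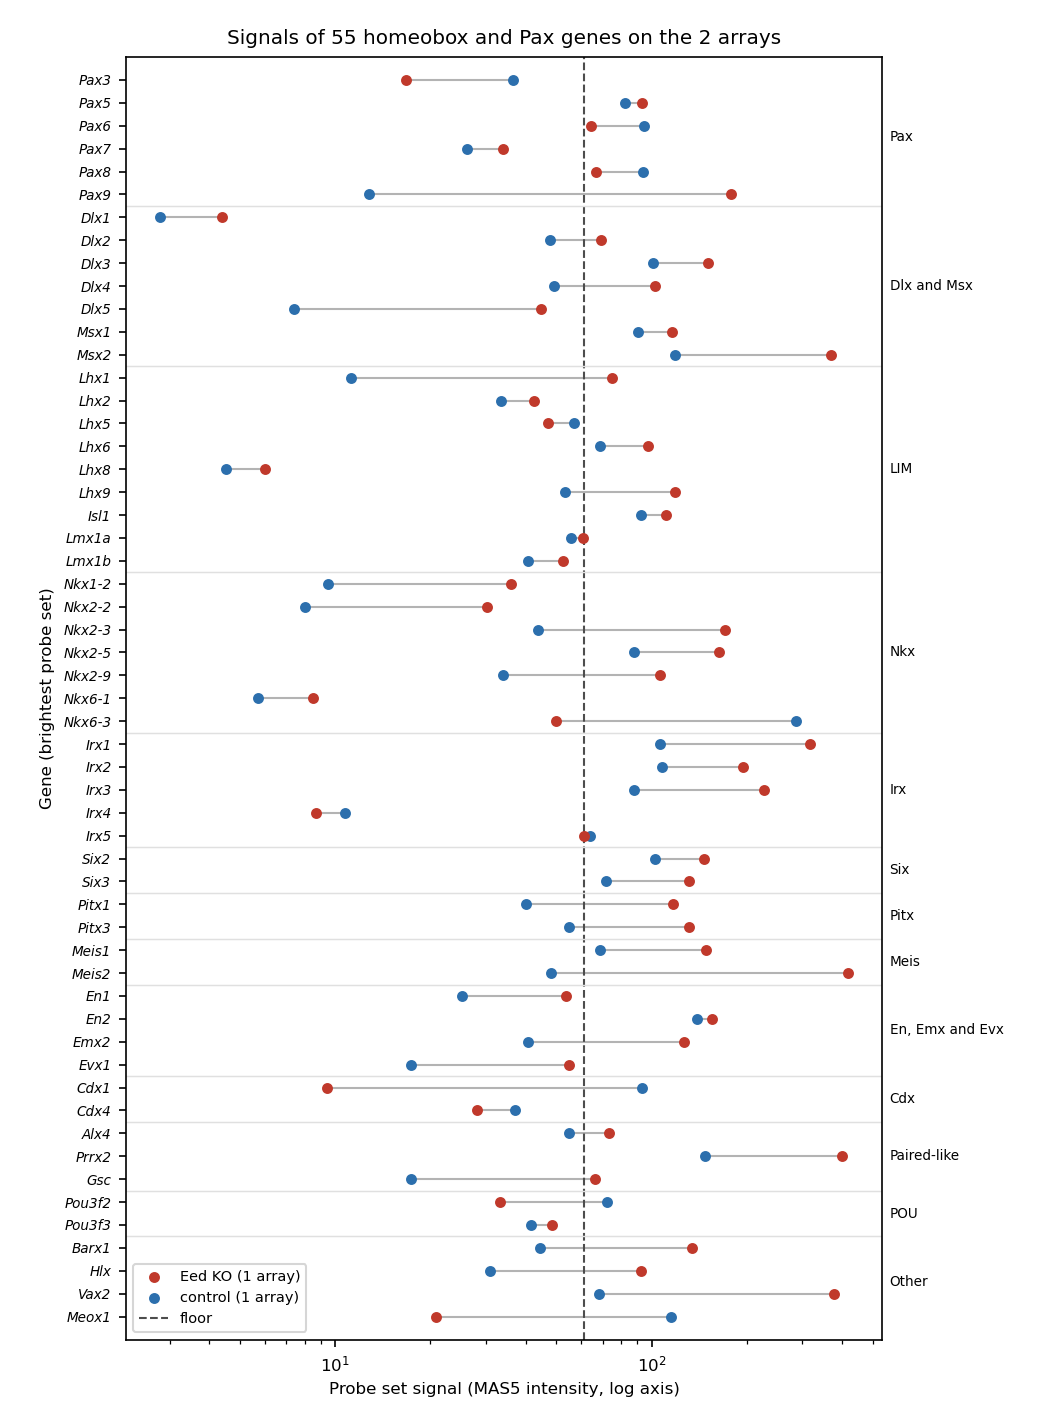
Signal of each of the 55 genes with a probe set (1 row per gene, its brightest probe set, families separated by lines) in Eed KO (red) and control (blue) on a log axis of intensity, 1 array each; the dashed line is the floor of 61.3. Red lies right of blue for 44 genes, and the widest gaps to the right that cross the floor include Pax9 and Meis2.

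**Figure D2:**
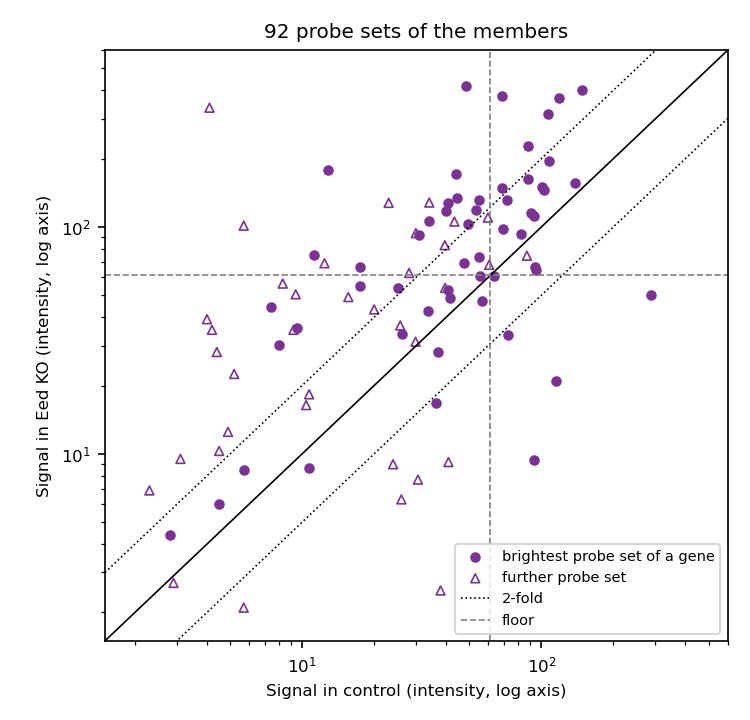
Signal in Eed KO (vertical, log axis) against control (horizontal, log axis) for all 92 probe sets, with filled circles for the brightest probe set of each gene and triangles for further ones; the solid line marks equal signals, dotted lines 2-fold and dashed lines the floor. Of the 92, 73 lie above the line of equal signals.

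Signals under the floor were raised to it before ratios were taken, so a ratio with only 1 signal above it is a lower bound, written "at least". A gene counted as measured when above the floor on at least 1 array. In Eed KO, 12 of the 38 measured genes were higher by 2-fold or more and 1 lower, with a median log2 ratio of 0.67. Of all 13794 measured genes 10.8% were higher by that much and 3.27% lower, with a median of 0.12. The other 25 listed genes did not reach 2-fold against the floor. Of these 25, 12 were above the floor on both arrays, 9 in Eed KO only and 4 in control only. Ratios of those 9 and 4 are lower bounds, so they may differ by more than 2-fold. For 20 of the 38 the direction was fixed by the floor, as they were above it on 1 array only (15 in Eed KO, 5 in control). Among the 18 above the floor on both arrays, where the direction was free, 16 had a ratio above 1. Of all 11815 such genes, 6629 did. At least 2-fold higher were 6 of the 18 (33.3%, against 9.89% of the 11815) and lower 0 (against 3.39%). Of such genes with both signals under 450, 12.2% were higher. Of the 15 measured in Eed KO only, 6 reached 2-fold, where 21.0% of all 1497 such genes did, and of the 5 measured in control only 1 did, where 10.4% of 482 did. With other scalings of the arrays the counts were 8 higher and 2 lower (quantile normalization, equal medians or removal of an intensity trend) or 10 and 2 (scaling on poly-A spikes), where 6.35 to 8.05% of all measured genes were higher and 4.12 to 7.49% lower. At equal medians the 2 lower genes (5.13%) were a smaller share than that of all genes (7.49%). Under these scalings the median of all genes moved to between -0.16 and 0.04.

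**Figure D3:**
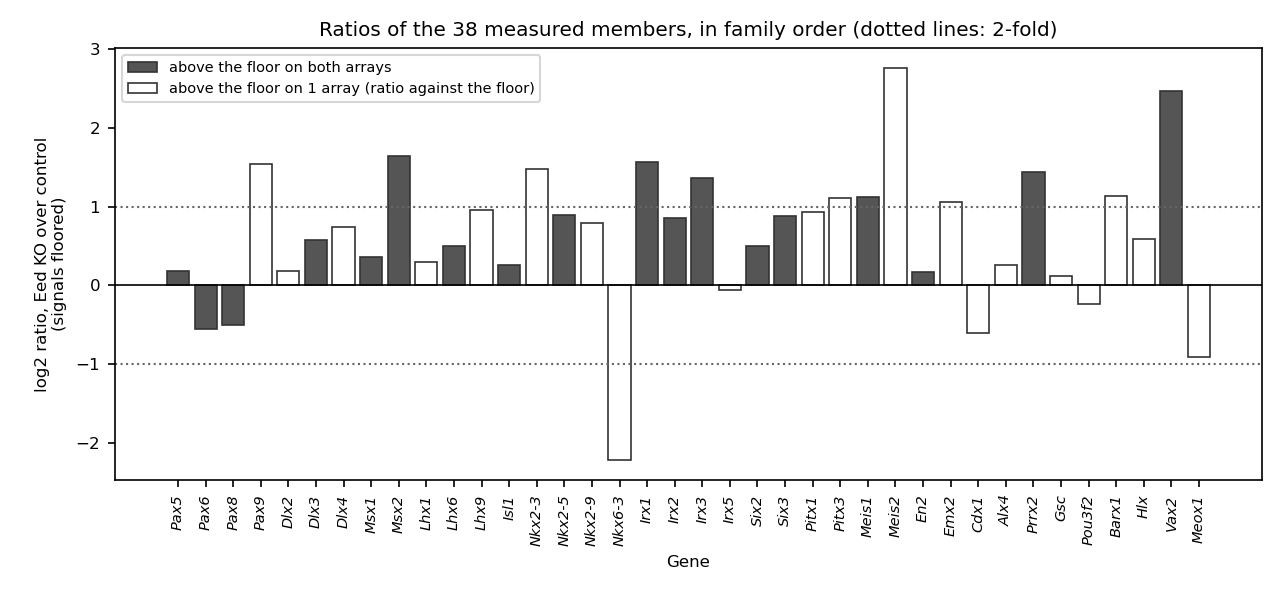
Log2 ratio of Eed KO over control for the 38 measured genes in family order, after raising signals to the floor; grey bars were above the floor on both arrays and white bars on 1 array only, and dotted lines mark 2-fold. The tallest bars are those of Meis2 (at least 6.80-fold) and of Vax2 (5.55-fold), and Nkx6-3 has the deepest one below 0.

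The Meis genes, which encode homeodomain partners of Hox and Pbx proteins, were higher on every probe set. Meis2 had 4 probe sets, reading 416.9, 335.4, 128.1 and 101.3 in Eed KO, against 48.2, 4.1, 34.0 and 5.7 in control. All 4 were above the floor in Eed KO and under it in control, and the brightest gave a ratio of at least 6.80-fold. That probe set can be shared with other transcripts, and without such probe sets the log2 ratio was 2.45. Meis1 read 148.5 in Eed KO and 68.5 in control (2.17-fold), and its further probe sets read 93.9 and 83.1, against 29.9 and 39.5. Meis1 lay just past 2-fold and under it in all 4 other scalings. Meis2 reached 2-fold under all 9 alternatives of scaling, floor and probe set choice.

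Among the paired-like genes, Prrx2, a factor of limb and craniofacial mesenchyme, read 400.6 in Eed KO and 148.1 in control (2.71-fold), and reached 2-fold under all 9 alternatives. Its paralogue Prrx1, which is not on the list, read 931.4 and 136.1 (6.84-fold). Both are genes of mesenchyme. The fibroblast markers of the same array were higher as given above, and whether this bears on the Prrx1 and Prrx2 values was not tested. Alx4, a limb patterning factor, and Gsc, the organizer gene goosecoid, were near the floor: Alx4 read 73.5 in Eed KO and 54.9 in control, and Gsc 66.5 and 17.4.

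Vax2, which specifies the ventral retina, had the largest ratio measured on both arrays, at 378.2 in Eed KO and 68.2 in control (5.55-fold). It had 1 probe set and reached 2-fold under all 9 alternatives. Because its control signal was close to the floor, the log2 ratio of 2.47 shrank to 1.17 under a floor at the 60th percentile. Barx1, a factor of stomach and jaw mesenchyme, read 134.7 in Eed KO and 44.3 in control (at least 2.20-fold), and Hlx, a factor of gut and liver mesenchyme, 92.3 and 30.9 (at least 1.51-fold). Barx1 reached 2-fold in 4 of the 9 alternatives. Meox1, a somite factor, went the other way, at 20.9 in Eed KO and 115.1 in control. Against the floor it was at least 1.88-fold lower, and it passed 2-fold under 6 of the 9 alternatives.

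Of the 5 Irx genes, which encode homeodomain factors of neural, heart and limb patterning, 2 were at least 2-fold higher. Irx1 read 316.2 in Eed KO and 106.7 in control (2.96-fold), and Irx3 227.2 and 88.2 (2.58-fold). Irx2 read 195.2 in Eed KO and 107.8 in control (1.81-fold), in the same direction under all 9 alternatives. A floor at the 60th percentile took Irx1 and Irx3 under 2-fold (log2 ratios of 0.91 and 0.43), and a pseudocount in place of the floor took Irx3 to 0.95. Irx5 stood at the floor (61.1 in Eed KO and 63.7 in control) and Irx4 was far under it (8.7 and 10.7). Each gene had 1 probe set. The Irx genes lie in clusters, and neighbours with no protein-coding gene between them did not share 1 pattern. Irx1 and Irx2, side by side on chromosome 13, had log2 ratios of 1.57 and 0.86, while Irx4 beside Irx2 was not measured, and on chromosome 8 Irx3 had 1.37 and its neighbour Irx5 -0.06.

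The Msx and Dlx genes act downstream of BMP signals in the face, limbs and forebrain. Msx2 read 369.9 in Eed KO and 118.5 in control (3.12-fold), and its further probe set 62.7 and 28.0. As the mean over both probe sets its log2 ratio was 0.84, under 2-fold, where the brightest alone gave 1.64. In that mean the further probe set counts as 0.03, since its control signal was raised to the floor. Without any floor it was 2.24-fold higher. Its paralogue Msx1 read 115.7 in Eed KO and 90.3 in control (1.28-fold), on a probe set that can be shared, and 49.1 and 15.6 on the other. Dlx3 read 150.7 in Eed KO and 100.8 in control, a log2 ratio of 0.58, but its further probe set read 74.7 and 87.0, the other way. Dlx4 (102.6 and 49.3, at least 1.67-fold) and Dlx2 (69.2 and 47.7) were above the floor in Eed KO only. Dlx1 and Dlx5 were under it on both arrays. The neighbours Dlx3 and Dlx4 on chromosome 11 thus had log2 ratios of 0.58 and 0.74.

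The Nkx genes held the only member at least 2-fold lower. Nkx6-3, a gene of the stomach and hindbrain, read 49.9 in Eed KO and 286.9 in control, at least 4.68-fold lower. Its log2 ratio was -0.77 under a floor at the 60th percentile. In the same family, Nkx2-3, a factor of gut mesenchyme, spleen and vessels, read 171.1 in Eed KO and 43.8 in control (at least 2.79-fold higher), which the same floor took to a log2 ratio of 0.02. Its next probe set read 110.0 in Eed KO and 59.8 in control, while the third, which can be shared, read 9.2 and 40.9, both under the floor. Nkx2-5, the cardiac factor, read 163.3 in Eed KO and 88.0 in control (1.86-fold), and Nkx2-9, a target of hedgehog signals in the neural tube, 106.0 and 34.0 (at least 1.73-fold). Nkx1-2, Nkx2-2 and Nkx6-1 were under the floor on both arrays.

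On their brightest probe sets the Pax genes went both ways. Pax9, a factor of pharyngeal pouches and teeth, read 179.0 in Eed KO and 12.8 in control (at least 2.92-fold higher), with a log2 ratio of 0.09 under a floor at the 60th percentile. Its 2 further probe sets were under the floor on both arrays and pointed opposite ways, at 39.2 and 2.5 in Eed KO, against 4.0 and 37.9 in control. Pax9 lies beside Nkx2-9 on chromosome 12, with no protein-coding gene between them. Pax6, the eye and forebrain factor, read 64.4 in Eed KO and 94.9 in control (1.47-fold lower). Its further probe sets were all under the floor and went both ways. They read 53.9, 35.2, 6.3 and 2.1 in Eed KO, against 39.6, 9.2, 26.0 and 5.7 in control. Pax8, of thyroid and kidney, read 66.6 in Eed KO and 94.3 in control (1.42-fold lower). Its other probe set, under the floor, went the other way, at 18.3 and 10.7. The Eed KO signals of both genes were just above the floor. The B cell factor Pax5 read 93.5 in Eed KO and 82.4 in control, with a log2 ratio of 0.18 that turned to as low as -0.14 under other scalings. Pax3 and Pax7, of neural crest and muscle progenitors, were under the floor on both arrays.

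Of the 9 LIM homeodomain genes, which specify neuron types and limb and head tissue, 0 reached 2-fold in either direction and 5 were under the floor on both arrays on their brightest probe set (Lhx2, Lhx5, Lhx8, Lmx1a and Lmx1b). Of these, Lmx1b had a further probe set just above the floor in Eed KO, at 69.2 in Eed KO and 12.4 in control, a log2 ratio of 0.17 against the floor. Lhx9, a gonad and limb factor, had 3 of 4 probe sets above the floor in Eed KO, at 127.7, 118.9 and 105.6, against 23.0, 53.2 and 43.3 in control, where all 3 were under it. The brightest by mean signal was at least 1.94-fold higher. Lhx6 read 97.6 in Eed KO and 68.9 in control (1.42-fold). Isl1, of motor neurons and heart progenitors, read 111.2 in Eed KO and 92.8 in control, with a log2 ratio of 0.26 that was -0.05 when the arrays had equal medians. Lhx1, of the head organizer and kidney, was just above the floor in Eed KO at 74.9, and read 11.2 in control.

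Pitx3, a lens and dopaminergic neuron factor, read 131.8 in Eed KO and 54.7 in control (at least 2.15-fold higher), and reached 2-fold in 4 of the 9 alternatives. Pitx1, which specifies the hindlimb, read 117.3 in Eed KO and 40.1 in control on its brightest probe set (at least 1.91-fold), and 68.1 and 60.5 on the other. Six2, a kidney progenitor factor, read 146.0 in Eed KO and 102.9 in control (1.42-fold), and its neighbour Six3, a forebrain and eye factor, 131.7 and 71.6 (1.84-fold). Both genes stayed within 2-fold and were higher in Eed KO under all 4 other scalings. Emx2, a factor of cortex and kidney, read 127.1 in Eed KO and 40.8 in control (at least 2.07-fold higher), and reached 2-fold in 3 of the 9 alternatives. En2, a midbrain factor, read 155.6 in Eed KO and 138.8 in control, with a log2 ratio of 0.16 that became -0.14 when the arrays had equal medians. En1 and Evx1 were under the floor on both arrays.

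Of the 2 caudal and 2 POU genes on the list, 1 of each was measured. Both were above the floor in control only, so that the floor fixed their direction. Cdx1, a factor of posterior patterning and intestine, read 9.4 in Eed KO and 93.3 in control, at least 1.52-fold lower against the floor. Pou3f2, a neural POU factor, read 33.3 in Eed KO and 72.5 in control on its brightest probe set, and both other probe sets were under the floor, at 43.3 and 9.5 in Eed KO against 20.0 and 3.1 in control. Cdx4 and Pou3f3 were under the floor on both arrays. In all, 17 of the 55 genes were under it on both on their brightest probe set, with signals there of 4.4 to 60.6 in Eed KO and 2.8 to 56.7 in control, so that no ratio was given for them on that probe set. Of their further probe sets, the one of Lmx1b given above was the only one over the floor.

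Different probe sets of a gene were the only repeated measurement. The SD of a log2 ratio for 1 probe set, taken from the brightest pair of probe sets of each gene, was 0.49 where the signal was 128 or less, 0.41 from there to 256 and 0.33 from 256 to 512. This SD covers spread between probe sets of the same 2 arrays only, technical or by isoform. Error that all probe sets of an array share, as from RNA preparation or labelling, is not in it. A 2-fold ratio is 1 on this scale. Of the 13 genes past 2-fold, 5 had further probe sets. Their 10 further probe sets went the same way as the brightest in 8 cases by signal without any floor, and the other way for 1 of Pax9 and 1 of Nkx2-3, both under the floor on both arrays. Of all named probe sets with both signals under 450, 63.3% were higher in Eed KO. Of the 10, 7 were above the floor, each in Eed KO only, so that the floor fixed their direction. Only 2 of these 7, both of Meis2, reached 2-fold against the floor. With both signals above the floor, Meis1 (2.17) lay just past 2-fold and Nkx2-5 (1.86) just short of it. Among the lower bounds, those of Emx2 (at least 2.07), Pitx3 (at least 2.15) and Barx1 (at least 2.20) were just past it. Those of Lhx9 (at least 1.94), Pitx1 (at least 1.91) and Meox1 (at least 1.88, lower) were just short. Such a bound does not place a gene under 2-fold. Without any floor, Lhx9, Pitx1 and Meox1 differed by 2.24, 2.93 and 5.51-fold, from signals partly under it.

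Other homeobox genes outside the Hox clusters and the Hox cluster genes were set beside these genes as a description, with no test of a difference. All these lists were chosen with earlier results of these data known. A contrast between them may therefore come from how the genes were divided, which was not tested. Of 69 other homeobox genes with a probe set 37 were measured, with a median log2 ratio of 0.21. Past 2-fold upward were 5 (13.5%, against 10.8% of all measured genes) and downward 3 (8.11%, against 3.27%). Above the floor on both arrays were 24 of them, of which 12 had a ratio above 1 and 12 below. Of all 11815 such genes, 6629 had a ratio above 1. After Prrx1, the largest ratios among the 5 were those of the placental gene Esx1 (680.9 in Eed KO and 179.0 in control), Tlx3 (153.6 and 53.6, the second under the floor) and Pou6f1 (367.3 and 157.2). Lower were Gbx2 (191.2 in Eed KO and 1583 in control), Pou3f1 (247.9 and 1678) and Otx2 (698.7 and 1425). With other scalings the counts were 3 higher and 4 lower (quantile normalization), 3 and 6 (equal medians), 4 and 3 (intensity trend removed) and 4 and 4 (poly-A spikes). Of 21 measured Hox cluster genes 4 were higher (Hoxd13, Hoxd8, Hoxa11 and Hoxb2) and 0 lower, with a median of 0.76. The 4 are 19.0%, against 10.8% of all measured genes higher and 3.27% lower. For 13 of the 21 the floor fixed the direction, as they were above it in Eed KO only. Of these 13, 1 reached 2-fold (7.69%, against 21.0% of all such genes). Of the 8 above the floor on both arrays 3 did (37.5%, against 9.89%). The 8 above the floor on both arrays all had a ratio above 1 as deposited, though 1 of the 21 was below 1 with the intensity trend removed or under quantile normalization.

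**Figure D4:**
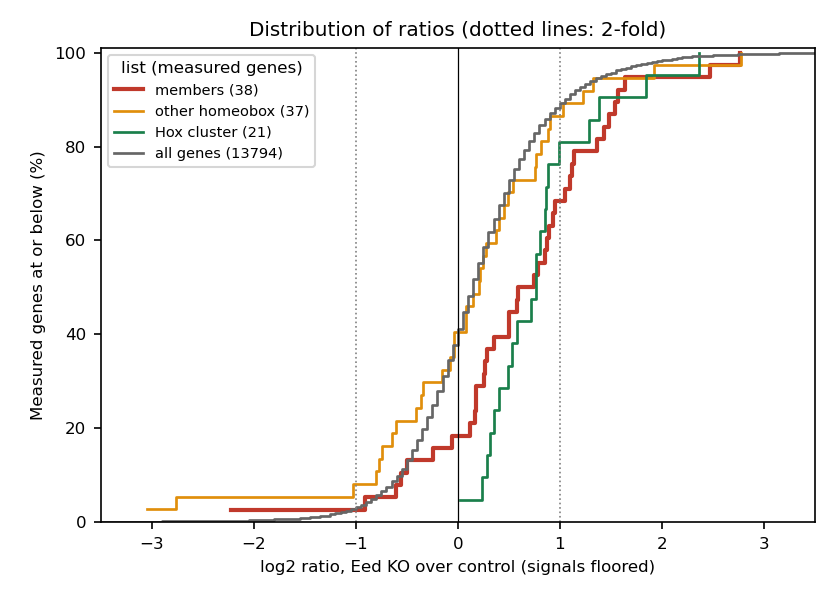
Percent of measured genes at or below each log2 ratio of Eed KO over control, for the 38 listed genes (red, "members"), 37 other homeobox genes, 21 Hox cluster genes and all 13794 measured genes; dotted lines mark 2-fold. The red curve lies right of that of all genes over most of its range, and genes measured on 1 array only, whose direction the floor fixed, are included.

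**Figure D5:**
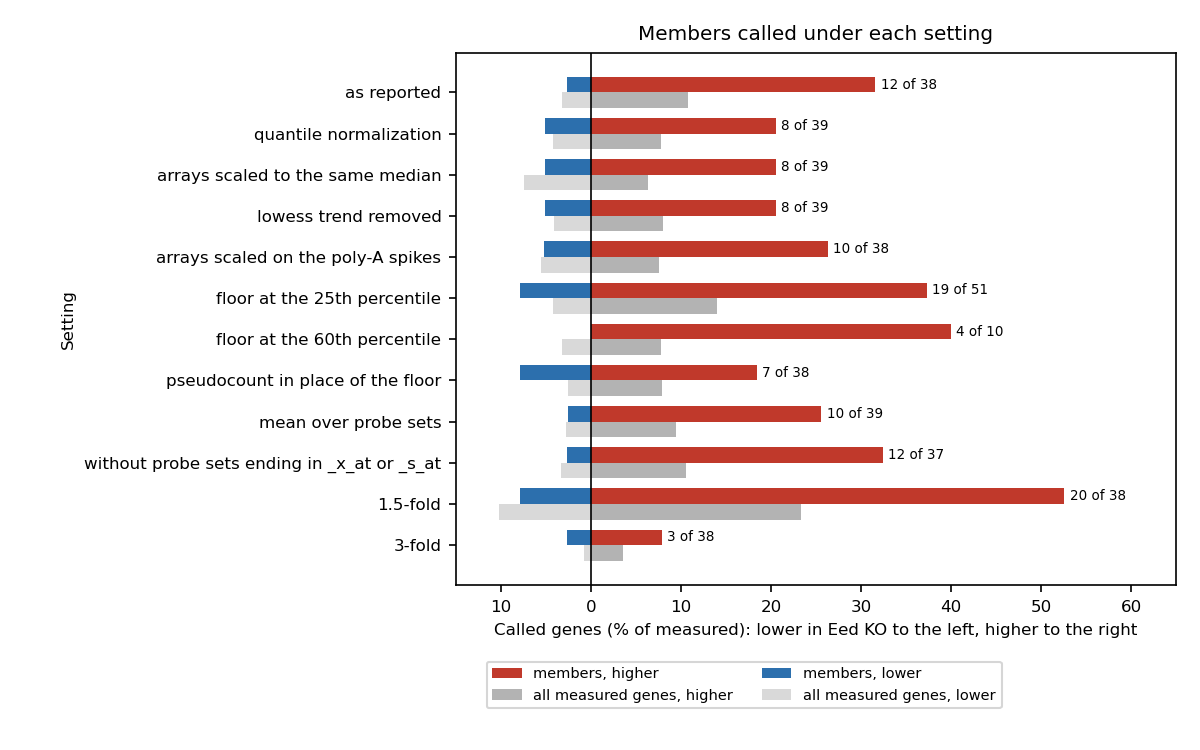
Percent of measured genes called higher (right) or lower (left) in Eed KO under each setting, at 2-fold unless the setting names another size, for the listed genes (red and blue, "members") and all measured genes (grey); labels give the number of listed genes higher of those measured. The number higher ran from 4 of 10 (floor at the 60th percentile) to 19 of 51 (floor at the 25th), at calls of 2-fold.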

How the data were processed

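Signals were measured in 1 Eed KO array and 1 control array, grouped by sample title. The deposited unit is a linear intensity for each probe set, computed by the authors with MAS5, per the submitters' processing notes, with no version given there. They carried no detection call. Of the 45101 probe sets, 34945 had 1 gene symbol in the platform annotation, 932 several, 9160 none, and 64 were control probe sets. The brightest probe set by mean log2 signal stood for a gene. Signals under the floor of 61.3 were set to it, and a gene was called at 2-fold. With 1 array per group no p-value was computed, and the number of arrays limits the precision. Alternatives were 4 other scalings, 2 other floors, a pseudocount, 2 other choices of probe sets, and calls at 1.5-fold and 3-fold. The procedure was tested on simulated data, where only genes with a control signal above that of any listed gene were changed. The changes put in were larger than 2-fold. The simulation therefore does not check calls near the floor, where the listed genes lie. The members and lists, and the rule that every member is named, with both signals given for those called or above the floor on both arrays, were chosen with earlier results of these data known. Promoter sequences came from RefSeq (GRCm38.p6). Analyses used Python 3.11.15, pandas 2.3.3 and statsmodels 0.14.6.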

Additional observations from a re-analysis of the deposited data

How the results depend on the processing

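As reported, 12 listed genes were at least 2-fold higher in Eed KO and 1 lower, with a median log2 ratio of 0.67. Of all measured genes 10.8% were higher and 3.27% lower, and each pair of percentages below is that of all measured genes. Quantile normalization gave 8 and 2 (7.77% and 4.26%, median 0.43), equal array medians 8 and 2 (6.35% and 7.49%, 0.44), removal of the intensity trend 8 and 2 (8.05% and 4.12%, 0.43) and scaling on the poly-A spikes 10 and 2 (7.56% and 5.57%, 0.57). The excess of the median over that of all measured genes was 0.54 as reported and between 0.39 and 0.62 under these scalings. The floor at the 25th percentile gave 19 higher and 4 lower (14.0% and 4.27%), the floor at the 60th 4 and 0 of only 10 measured genes (7.82% and 3.24%), and a pseudocount 7 and 3 (7.87% and 2.54%, 0.60). The mean over probe sets gave 10 and 1 (9.49% and 2.75%, 0.54). Calls at 1.5-fold gave 20 and 3 (23.3% and 10.2%), and at 3-fold 3 and 1 (3.53% and 0.739%). The 3 lower at 1.5-fold were 7.89% of the 38 measured listed genes. Leaving out probe sets that can be shared kept the counts at 12 and 1 (10.6% and 3.38%). Meis2, Prrx2 and Vax2 were higher under all 9 alternatives of scaling, floor and probe sets, and Nkx6-3 was lower under 8. Over these alternatives, 283 of 310 values of single measured genes stayed within 0.49 on the log2 scale of the reported one, 27 moved by more, and 0 called genes changed sign. The causes were not tested, apart from the smaller number of genes a higher floor leaves. No array can be left out, as each group has 1.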
